A study of Mus musculus with 6 samples.

Results

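The oxidative phosphorylation (OXPHOS) genes were examined in primary mouse keratinocytes and mouse embryonic fibroblasts (MEFs), the epithelial and mesenchymal cells whose expression profiles the study set side by side. The members were the probe sets of the array, each a group of probes for one transcript, that were paired with exactly 1 gene symbol beginning with Nduf, Sdha, Sdhb, Sdhc, Sdhd, Uqcr, Atp5, Cycs or Cox followed by a digit. In all, 104 probe sets of 84 genes met this rule, out of 11288 probe sets of 10261 genes that had 1 symbol. A further 6 probe sets paired with several symbols, one of which would have matched, were left out. Total RNA was hybridised to 6 one-colour Affymetrix arrays, 3 labelled as biological replicates of keratinocytes and 3 of MEFs, and all levels below are log2 signals.

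Newborn (P0) skin was the source of the keratinocytes, and E13.5 embryos without head and inner organs that of the MEFs. The study's methods name C57BL/6J for the MEFs, the isolation protocol in the labels names DR-4 as the strain, and no strain is named for the keratinocytes. No treatment was applied to either, and no genotype is given. Both are cultures of mixed primary cells, embryos were pooled during MEF isolation, and each cell type had its own medium. Cell type, medium, source tissue and age therefore cannot be told apart, nor can strain if it differed. In such bulk samples, less RNA of a gene per cell and fewer cells of a type that expresses it cannot be told apart either.

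The labels were checked first with Cdh1, which encodes E-cadherin of epithelial junctions, and Vim, the intermediate filament of mesenchymal cells. Cdh1 read 3.33, 2.16 and 3.26 with the label keratinocytes and 8.62, 8.59 and 8.73 with the label MEFs, a difference of at least 7.71-fold (limma, adjusted p = 4.03e-07). Vim read 11.93, 11.97 and 12.03 against 3.81, 3.92 and 3.78 in the same order, at least 48.1-fold the other way (limma, adjusted p = 7.89e-10). Both markers thus ran against the labels, and so did all 6 epithelial and all 6 mesenchymal markers measured. Every direction below is therefore given by the label on the array, and none is assigned to a cell type.

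Oxidative phosphorylation is the last step of respiration in the inner mitochondrial membrane. Complex I takes electrons from NADH and complex II takes them from succinate, both pass them to coenzyme Q, complex III hands them to cytochrome c, and complex IV gives them to oxygen. Complexes I, III and IV pump protons, and complex V, the ATP synthase, lets the protons flow back and makes ATP. Each complex has a few core subunits that carry the catalysis and accessory subunits around them, and assembly factors that build the complex without being part of it. Some core subunits are encoded in mitochondrial DNA, and none of the 13 such genes was measured here.

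Few of the OXPHOS probe sets were higher with the label keratinocytes, and most differences were small. Of the 104, 58 passed an adjusted p under 0.05 in limma fitted over all 11288 probe sets, where 74% of all probe sets passed. Among these, 49 were higher with the label MEFs and 9 with the label keratinocytes, and 46 members did not pass. The same call was made for 41.6% of all probe sets toward the label MEFs and for 32.4% toward the label keratinocytes, so that the members' 47.1% stood near the background in the first direction and their 8.65% below it in the second. Counted by gene, with the brightest probe set for each, 41 of 84 were higher with the label MEFs and 8 with the label keratinocytes, against 41.7% and 32.9% of all genes, and 74.5% of all genes in either direction. Each of the 49 probe sets also had all 3 values labelled MEFs above all 3 labelled keratinocytes, which held for 43.4% of all probe sets. The groups were separate in one direction or the other in 59 members and in 77.9% of all probe sets.

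The members' median difference, keratinocytes minus MEFs by label, was -0.26 with a middle range from -0.51 to -0.01, against -0.12 for all probe sets with a range from -0.63 to 0.47. Their median absolute difference was 0.35 against 0.56. A difference of at least 1, which is 2-fold, was reached and called in 3 members (2.88%) and in 28.3% of all probe sets. The 3 members, Cox6b2, Ndufa4l2 and Cox17, were below background on all 6 arrays. Of the 104 members, 65 lay above background on all 6 arrays, background being set on each array by 10 probe sets of olfactory receptors, at their 95th percentile, and 12 lay above it on none. When each array was centred on its median, the members' counts were 38 (36.5%) and 12 (11.5%), against 36.1% and 36.5% of all probe sets, and their median was -0.16 against -0.03. With quantile normalisation they were 37 (35.6%) and 10 (9.62%), against 38.3% and 34.2%. The share called toward the label MEFs was thus near or below the background under both scalings, while the share called toward the label keratinocytes was below it under each.

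**Figure D1:**
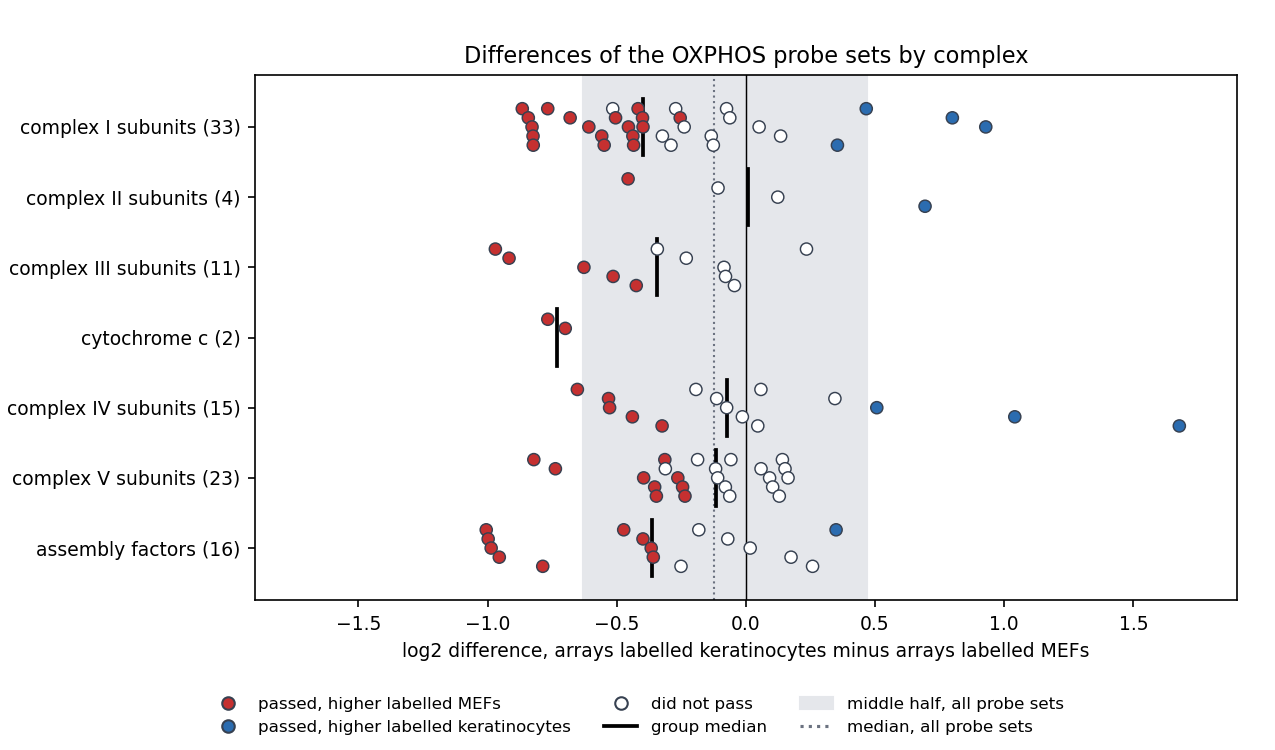
Each point is 1 probe set, placed by its log2 difference (arrays labelled keratinocytes minus arrays labelled MEFs, 3 arrays each) and by complex, with the number of probe sets in brackets. Filled points passed an adjusted p under 0.05, black bars are group medians, and the grey band and dotted line give the middle range and median of all 11288 probe sets. Complexes I and III and the assembly factors have medians of -0.40, -0.34 and -0.36, while complexes IV and V have medians of -0.07 and -0.12.

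The array medians of the members were 6.78, 6.89 and 6.99 with the label keratinocytes and 7.19, 7.13 and 7.26 with the label MEFs, and the groups did not overlap. The medians of all probe sets with 1 symbol were separate in the same direction, at 6.23, 6.19 and 6.27 against 6.31, 6.38 and 6.39. The background level was 5.49 to 5.92 and 6.05 to 6.58 in the same order, so it was higher on every array labelled MEFs. On MEF replicates 1 and 3 by label it even exceeded the array's median. Set near the highest of only 10 probe sets, it is a strict cutoff. A value below background is therefore no evidence that a gene was not expressed. Content markers are genes that mark the amount of mitochondria, and 20 were measured. Of these, 13 (65%, against 41.7% of all genes) were higher with the label MEFs. A further 2 (10%, against 32.9%) were higher with the label keratinocytes, and 5 did not pass. The median difference of the content markers was -0.41, against -0.12 for all genes. Of the content markers, 19 lay above background on all 6 arrays. Of all probe sets that did so, 51.1% were higher with the label MEFs and 24% with the label keratinocytes, with a median of -0.27. Slc25a5, an ADP/ATP carrier of proliferating cells, differed by -1.27, Aifm1 by -0.84, and Tomm22 of the outer membrane import complex by -0.83. Slc25a4, the ADP/ATP carrier of heart and muscle, went the other way with 0.37, as did the matrix protease Lonp1 with 0.48. Their part in the OXPHOS result was not tested.

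The promoters of the members were searched for motifs of factors known to act on nuclear OXPHOS genes. These are NRF1 and the ETS factor GABP (also called NRF2), YY1, the oestrogen-related receptors (ERR) and SP1, the last as a general promoter factor. RefSeq windows from 250 bases before to 50 after the start of transcription (GRCm38.p6) were found for 71 of the 84 genes, as 76 windows, and both strands were read. The NRF1 motif, GCGCA and GCGC with any 1 base between, was in 21.1% of the members' windows, 9.75% of the windows of all genes tested and 4.6% of all RefSeq windows. The ETS motif CCGGAAG was in 31.6%, 17% and 8.86% in the same order. The YY1 motif AAGATGGCG was in 10.5%, 2.89% and 1.4%, the ERR motif TCAAGGTCA in 2.63%, 0.247% and 0.423%, and the SP1 motif GGGGCGGGG in 14.5%, 22.2% and 11.4%. No test was made of these shares, the motifs were chosen with the members known, and a match is no evidence of binding.

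**Figure D2:**
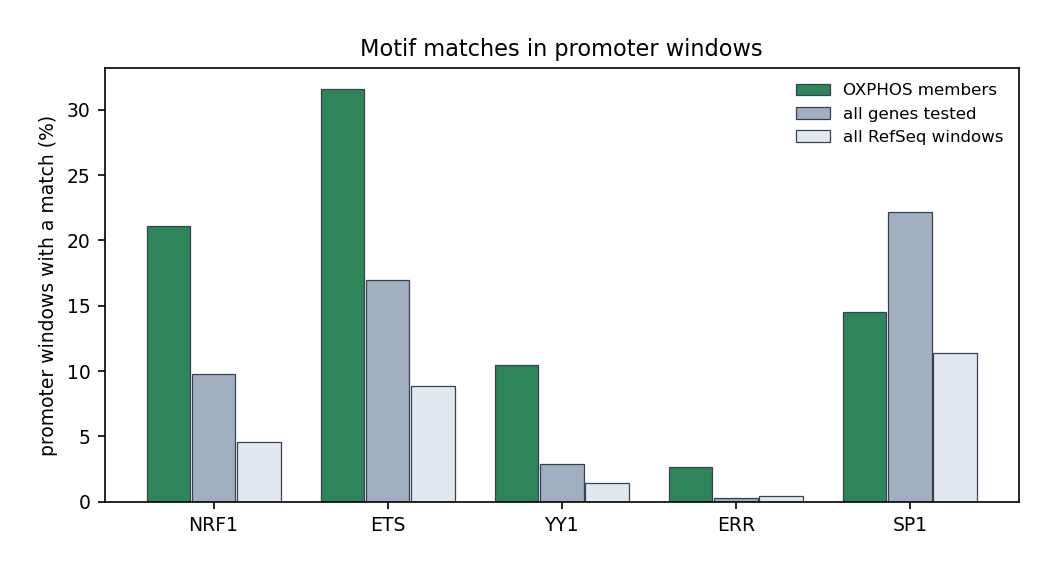
Bars give the percent of promoter windows with at least 1 match on either strand, for the 76 windows of OXPHOS members, the 10525 windows of all genes tested and all 32851 RefSeq windows. The members' bar is the highest of the 3 for NRF1, ETS, YY1 and ERR, and lies between the other two for SP1.

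A motif was found on both sides of the comparison. The 6 stretches below pair, for each of 3 motifs, a gene higher with the label MEFs and a gene higher with the label keratinocytes. The even pairing was set by this choice and does not reflect how many genes of each direction carry a motif. All stretches run 5′ to 3′ along the gene's strand, with the motif in capitals. Positions are those of the motif's first base, and positions after the start count the start itself as the first base.
Ndufaf4, NRF1 motif, chr4:24897930-24898019, plus strand, motif 113 bases before the start: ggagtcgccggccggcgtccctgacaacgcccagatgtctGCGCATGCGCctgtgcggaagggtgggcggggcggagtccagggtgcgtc
Ndufs5, NRF1 motif, chr4:123718235-123718324, minus strand, motif 98 bases before the start: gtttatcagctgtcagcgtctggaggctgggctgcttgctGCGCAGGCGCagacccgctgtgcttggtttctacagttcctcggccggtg
Ndufs3, ETS motif, chr2:90904722-90904788, minus strand, motif 27 bases before the start: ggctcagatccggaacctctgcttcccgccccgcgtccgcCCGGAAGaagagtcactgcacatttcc
Sdhb, ETS motif, chr4:140961266-140961295, plus strand, motif 7 bases after the start: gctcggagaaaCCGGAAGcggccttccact
Ndufs6, YY1 motif, chr13:73328433-73328462, minus strand, motif 34 bases after the start: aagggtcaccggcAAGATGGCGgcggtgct
Ndufc1, YY1 motif, chr3:51408914-51408943, minus strand, motif 23 bases after the start: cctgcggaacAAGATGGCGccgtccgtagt

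Of the 15 member genes with the NRF1 motif, 10 were higher with the label MEFs and 1, Ndufs5, with the label keratinocytes, and their median difference was -0.61 against -0.27 for the 56 genes without it. Of the 24 with the ETS motif, 11 and 2 were called in these directions, with a median of -0.25 against -0.35 without it. Of the 8 with the YY1 motif, 6 and 1 were, with a median of -0.40 against -0.29 without it. Both genes with the ERR motif were higher with the label MEFs. Of the 11 with the SP1 motif, 3 were called each way, with a median of 0.02 against -0.33 without it. Among genes without the motif, 25 and 5 of 56 were called in these directions for NRF1. The counts were 24 and 4 of 47 for ETS and 29 and 5 of 63 for YY1. They were 33 and 6 of 69 for ERR and 32 and 3 of 60 for SP1. These are descriptions of few genes, and the differences between the medians were not tested.

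Complex I, the largest of the complexes, was measured by 33 probe sets of 29 genes. Of these probe sets, 18 (54.5%, against 41.6% of all) were higher with the label MEFs and 4 (12.1%, against 32.4%) with the label keratinocytes. The 5 core genes measured all lay in the first direction, on all 6 of their probe sets. Ndufv1 holds the NADH binding site, and read 7.36, 7.39 and 7.48 with the label keratinocytes and 8.19, 8.12 and 8.23 with the label MEFs, a difference of -0.77 ± 0.09 (SE, limma, adjusted p = 7.61e-05), or 1.7-fold. Ndufv2, its partner in the electron input module, read 7.44, 7.67 and 7.81 against 8.52, 8.54 and 8.34, a difference of -0.82 ± 0.12 (SE, limma, adjusted p = 0.000307). The groups of arrays were well apart in both genes, with the lowest value labelled MEFs over the highest labelled keratinocytes.

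Ndufs3 belongs to the arm that leads electrons to coenzyme Q and had a pair of probe sets. The brighter read 7.98, 8.12 and 8.10 with the label keratinocytes and 8.87, 8.79 and 9.01 with the label MEFs, a difference of -0.83 ± 0.10 (SE, limma, adjusted p = 9.4e-05), and the other gave -0.82. Ndufs7 and Ndufs8, which hold iron-sulfur clusters of the same arm, differed less. Ndufs7 read 7.76, 7.85 and 7.74 against 8.23, 8.20 and 8.24, a difference of -0.44 ± 0.08 (SE, limma, adjusted p = 0.00166). Ndufs8 read 6.17, 6.35 and 6.66 against 6.75, 6.88 and 6.75, a difference of -0.40 ± 0.13 (SE, limma, adjusted p = 0.0234). Its highest value labelled keratinocytes came close to the lowest labelled MEFs, and its call was lost with arrays centred or quantile normalised and without any one of 3 arrays.

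Of the 27 probe sets of accessory subunits of complex I, 12 (44.4%, against 41.6% of all) were higher with the label MEFs. A further 4 (14.8%, against 32.4%) were higher with the label keratinocytes, and 11 did not pass. Ndufs6, a zinc-binding subunit added late in assembly, read 7.13, 6.82 and 6.71 with the label keratinocytes and 7.54, 7.84 and 7.88 with the label MEFs, a difference of -0.87 ± 0.14 (SE, limma, adjusted p = 0.000658). Ndufa8, a subunit on the intermembrane side, read 6.97, 7.21 and 7.28 against 8.12, 7.82 and 8.04, a difference of -0.84 ± 0.12 (SE, limma, adjusted p = 0.000327). Ndufa5, Ndufa9, Ndufa10, Ndufb3, Ndufb6, Ndufb7, Ndufb8, Ndufb9, Ndufs4 and 1 of the probe sets of Ndufa11 were called the same way, with differences from -0.25 for Ndufb6 to -0.68 for Ndufb9. Ndufb3 was below background on all 6 arrays.

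The subunits Ndufa3, Ndufs5 and Ndufc1 stood against the rest of the complex. Ndufa3, a small membrane subunit, read 7.17, 7.59 and 7.71 with the label keratinocytes and 6.69, 6.44 and 6.55 with the label MEFs, a difference of 0.93 ± 0.15 (SE, limma, adjusted p = 0.000604), or 1.9-fold. Ndufs5, an accessory subunit on the intermembrane side, read 6.03, 6.01 and 6.26 against 4.90, 5.29 and 5.72, a difference of 0.80 ± 0.19 (SE, limma, adjusted p = 0.00561). All 3 values of Ndufs5 labelled MEFs lay below background, and no fold is given. Ndufc1, a membrane subunit, was higher with the label keratinocytes on both of its probe sets, by 0.35 and 0.47, the brighter reading 8.16, 8.17 and 8.36 against 8.00, 7.72 and 7.90. In all 3 genes the groups did not overlap. The call of the brighter Ndufc1 probe set was lost without keratinocyte replicate 3 or MEF replicate 2 by label.

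The other 11 probe sets of complex I did not pass, and some of their intervals were narrow. Ndufab1, the mitochondrial acyl carrier protein, differed by -0.06 with a 95% interval from -0.33 to 0.20, and Ndufb11 by 0.05 with an interval from -0.21 to 0.32. Ndufb10 differed by -0.52 with an interval from -1.03 to 0.00, below background on all 6 arrays.

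Complex II, succinate dehydrogenase, is also an enzyme of the citrate cycle, and its 4 subunits, each with 1 probe set, went different ways. Sdhb, the iron-sulfur subunit, read 6.68, 6.73 and 6.85 with the label keratinocytes and 5.93, 6.10 and 6.15 with the label MEFs, a difference of 0.69 ± 0.10 (SE, limma, adjusted p = 0.000297). Only 1 of its 3 values labelled MEFs was above background. Sdhd, one of the membrane anchors, read 7.43, 7.24 and 7.66 against 7.87, 7.80 and 8.03, a difference of -0.46 ± 0.13 (SE, limma, adjusted p = 0.0114). The flavoprotein Sdha and the other anchor Sdhc overlapped between the groups, at -0.11 with a 95% interval from -0.35 to 0.14 and at 0.12 with an interval from -0.09 to 0.33. Sdhc passed, toward the label keratinocytes, when arrays were centred on their medians.

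Complex III passed on 5 of its 11 probe sets, all higher with the label MEFs (45.5%, against 41.6% of all). The core proteins Uqcrc1 and Uqcrc2 and the catalytic Uqcrfs1 were among them. Uqcrc1, a large matrix subunit, read 8.67, 8.87 and 9.00 with the label keratinocytes and 9.79, 9.76 and 9.90 with the label MEFs, a difference of -0.97 ± 0.11 (SE, limma, adjusted p = 7.25e-05), or 1.96-fold. Its companion Uqcrc2 read 8.91, 8.91 and 8.90 against 9.41, 9.40 and 9.45, a difference of -0.51 ± 0.08 (SE, limma, adjusted p = 0.00053). Both genes had groups that did not overlap. Uqcrfs1, the Rieske iron-sulfur protein, read 5.51, 5.11 and 5.50 against 6.00, 5.95 and 6.05, a difference of -0.63 ± 0.12 (SE, limma, adjusted p = 0.00201), but no array labelled MEFs reached its own background.

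Among the accessory subunits of complex III, Uqcr10 read 5.42, 5.47 and 5.87 with the label keratinocytes and 6.52, 6.35 and 6.63 with the label MEFs, a difference of -0.92 ± 0.14 (SE, limma, adjusted p = 0.000436). Uqcr11 passed on 1 of its 2 probe sets. The 3 probe sets of Uqcrb, a subunit near the coenzyme Q site, gave -0.04, -0.08 and -0.08 and the groups overlapped on each. Uqcrh, the hinge protein, differed by 0.23 with an adjusted p of 0.0659 in limma, its 3 values labelled keratinocytes lying above those labelled MEFs, 1 of them narrowly. Uqcrh was called, toward the label keratinocytes, with arrays centred or quantile normalised.

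Cytochrome c, the mobile carrier between complexes III and IV, was higher with the label MEFs on both probe sets of Cycs. The brighter read 7.59, 7.37 and 7.76 with the label keratinocytes and 8.41, 8.33 and 8.08 with the label MEFs, a difference of -0.70 ± 0.13 (SE, limma, adjusted p = 0.0015). The other gave -0.77. On neither did the groups overlap.

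**Figure D3:**
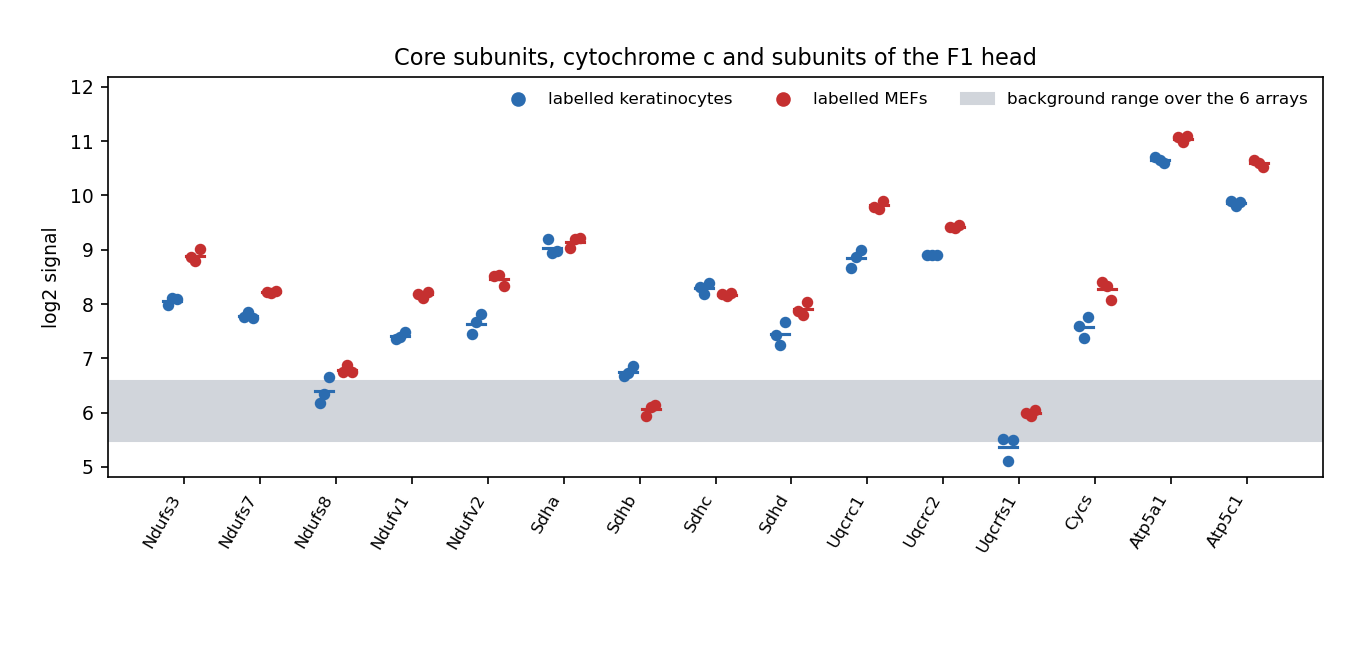
Points are the log2 signals of single arrays (blue, 3 labelled keratinocytes, and red, 3 labelled MEFs), bars are group means, and the grey band is the range of background over the 6 arrays, for core subunits of complexes I to III, cytochrome c and 2 subunits of the F1 head of ATP synthase. Red lies above blue in every gene shown except Sdha, where the groups overlap, and Sdhb and Sdhc, where the blue mean is higher.

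Complex IV, cytochrome c oxidase, had calls in both directions. Of its 15 probe sets, 5 (33.3%, against 41.6% of all) were higher with the label MEFs. A further 3 (20%, against 32.4%) were higher with the label keratinocytes, and 7 did not pass. The catalytic subunits of complex IV are encoded in mitochondrial DNA and the 13 genes measured are nuclear subunits. Ndufa4, once assigned to complex I and now counted with complex IV, read 9.50, 9.63 and 9.70 with the label keratinocytes and 10.21, 10.26 and 10.33 with the label MEFs, a difference of -0.65 ± 0.09 (SE, limma, adjusted p = 0.000313), or 1.57-fold. Cox7b gave -0.53 on both of its probe sets, and the call on one of them, whose values labelled keratinocytes ran from 6.57 to 7.37, was lost under several other settings. Cox7a2l, which joins complexes III and IV into supercomplexes, passed on 1 of 2 probe sets with -0.32, a call lost with arrays centred or quantile normalised. Cox5a, Cox6c and Cox8a overlapped between the groups, at -0.01, -0.11 and -0.07.

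Several subunits of complex IV exist as a general form and a form tied to a tissue or condition, and the general and alternative forms could be set side by side in their differences, though not in their levels, since probe sets differ in brightness. Cox4i1, the general form, read 7.69, 7.83 and 7.75 with the label keratinocytes and 8.18, 8.15 and 8.27 with the label MEFs, a difference of -0.44 ± 0.09 (SE, limma, adjusted p = 0.00222). Cox4i2, the form known from lung and low oxygen, read 4.61, 4.44 and 4.38 against 3.94, 3.89 and 4.08, a difference of 0.51 ± 0.10 (SE, limma, adjusted p = 0.00211). Both sets of arrays were separate in each gene, in opposite directions, but Cox4i2 lay below background on all 6 arrays.

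The pair Ndufa4 and Ndufa4l2 ran the same way as Cox4i1 and Cox4i2. Ndufa4l2, known to be induced in low oxygen, read 4.29, 4.78 and 3.95 with the label keratinocytes and 3.32, 3.17 and 3.40 with the label MEFs, a difference of 1.04 ± 0.19 (SE, limma, adjusted p = 0.0014). Cox6b2, the testis form, read 4.31, 5.13 and 4.98 against 3.18, 3.19 and 3.02, a difference of 1.68 ± 0.20 (SE, limma, adjusted p = 9.3e-05). Both were below background on all 6 arrays, so that no fold is given. The general form Cox6b1 overlapped between the groups, at 0.05 with a 95% interval from -0.26 to 0.36.

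Cox6a1, the general form of another subunit, differed by 0.06 with a 95% interval from -0.22 to 0.34. Cox6a2, its form in heart and skeletal muscle, read 4.87, 5.21 and 4.73 against 4.43, 4.55 and 4.79, a difference of 0.34 with an adjusted p of 0.0632 in limma, again below background. Of 11 skeletal muscle markers 4 were measured, and 3 (75%, against 32.9% of all genes) were higher with the label keratinocytes. Their summed log2 level was 20.6 to 21.5 with that label and 14.5 to 15.8 with the label MEFs, but Ckm and Tnnt3 were below background on all 6 arrays and Des was above it on 1. Of 5 heart markers 2 were measured and went opposite ways, Actc1 by 1.47 and Tnnt2 by -1.51, with summed levels of 11.8 to 12.2 and 11.8 to 12.1. Their part in the values of Cox6a2 was not tested.

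**Figure D4:**
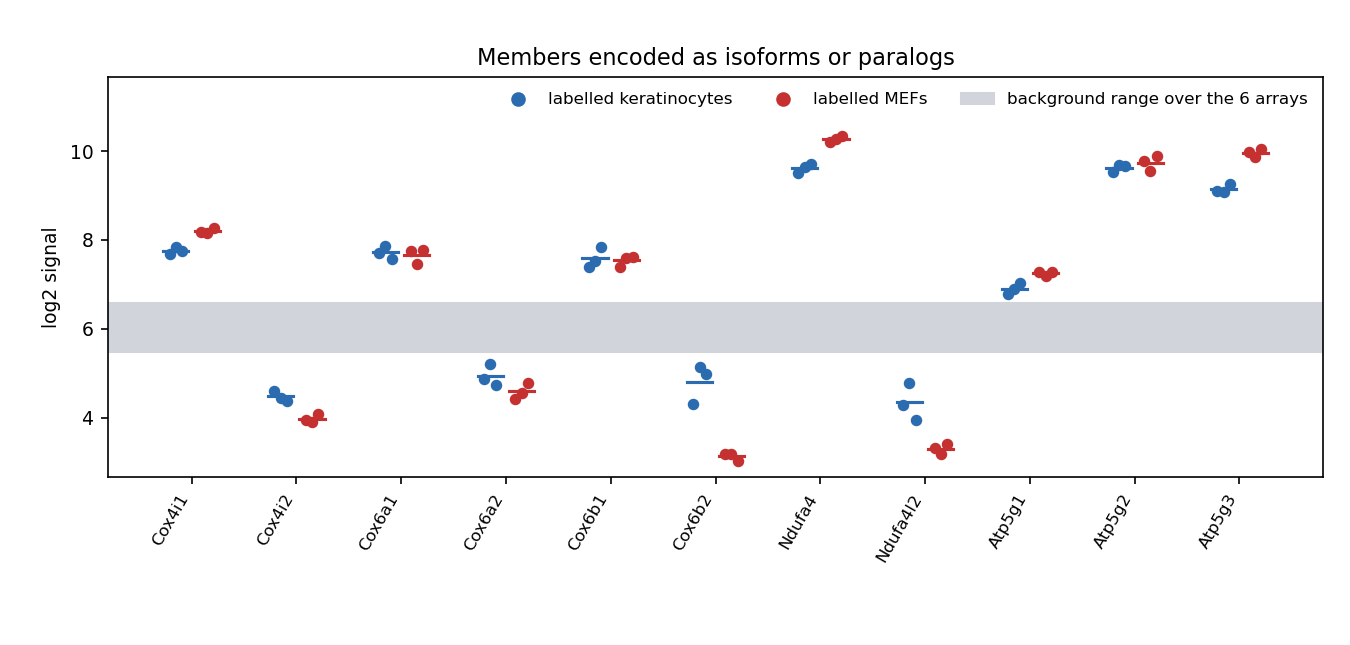
Points are the log2 signals of single arrays (blue, 3 labelled keratinocytes, and red, 3 labelled MEFs), bars are group means, and the grey band is the range of background over the 6 arrays, for subunits of complexes IV and V that are encoded as isoforms or paralogs. Cox4i2, Cox6a2, Cox6b2 and Ndufa4l2 lie below the band, with blue means above red, while Cox4i1, Ndufa4 and Atp5g3 lie above it with red over blue.

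Complex V, the ATP synthase, was measured by 23 probe sets of 13 genes, of which 9 probe sets (39.1%, against 41.6% of all) were higher with the label MEFs and none with the label keratinocytes. With quantile normalisation 4 were higher with the label MEFs. In the catalytic F1 head, 2 of 4 genes passed. Atp5c1, the rotating gamma subunit, read 9.90, 9.80 and 9.87 with the label keratinocytes and 10.66, 10.60 and 10.53 with the label MEFs, a difference of -0.74 ± 0.09 (SE, limma, adjusted p = 9.13e-05), or 1.67-fold. Atp5a1, the alpha subunit, read 10.70, 10.65 and 10.60 against 11.07, 10.99 and 11.09, a difference of -0.40 ± 0.09 (SE, limma, adjusted p = 0.00309). The groups were separate in both. Atp5d and Atp5e, subunits of the central stalk, differed by -0.19 with a 95% interval from -0.49 to 0.11 and by -0.31 with an interval from -0.81 to 0.18. The catalytic beta subunit Atp5b was not analysed here.

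The rotating c ring is built from one mature peptide that 3 genes encode, and these genes gave unlike values. Atp5g3 read 9.10, 9.07 and 9.25 with the label keratinocytes and 9.98, 9.86 and 10.04 with the label MEFs, a difference of -0.82 ± 0.10 (SE, limma, adjusted p = 9.96e-05). Atp5g1 was higher with the label MEFs by 0.35 on each of its probe sets, calls that were lost with quantile normalisation. Atp5g2 overlapped between the groups on all 3 of its probe sets, the brightest at -0.11 with a 95% interval from -0.36 to 0.15. The intervals of Atp5g2 and Atp5g3 do not overlap, the latter running from -1.05 to -0.60, but the difference between the genes was not tested.

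The other parts of the ATP synthase moved little. In the peripheral stalk, 4 of 5 probe sets (80%, against 41.6% of all) were higher with the label MEFs. The 3 probe sets of Atp5h gave -0.24, -0.26 and -0.31 and Atp5j gave -0.24, with adjusted p up to 0.0392 in limma. Atp5pb, at 0.06 with an interval from -0.19 to 0.30, was not called. Complex V calls toward the label MEFs fell from 9 to 6 with arrays centred or with a replicate block, and were 6 to 8 without single arrays. None of the 8 probe sets of the membrane subunits Atp5j2, Atp5l and Atp5md passed, where 74% of all probe sets did. Their differences ran from -0.06 to 0.16, and 6 of these probe sets were of Atp5l.

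Genes with several probe sets allowed a check within the array. There were 13 such genes with 33 probe sets, and the differences of a gene's probe sets lay within 0.0041 to 0.1628 of each other. In 10 of the genes all probe sets had the same call. In Cox7a2l, Ndufa11 and Uqcr11 one probe set passed and the other did not, with the same sign, and in none were probe sets called in opposite directions. Whether probe sets of a gene share probes, or read processed copies of it elsewhere in the genome, was not tested.

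**Figure D5:**
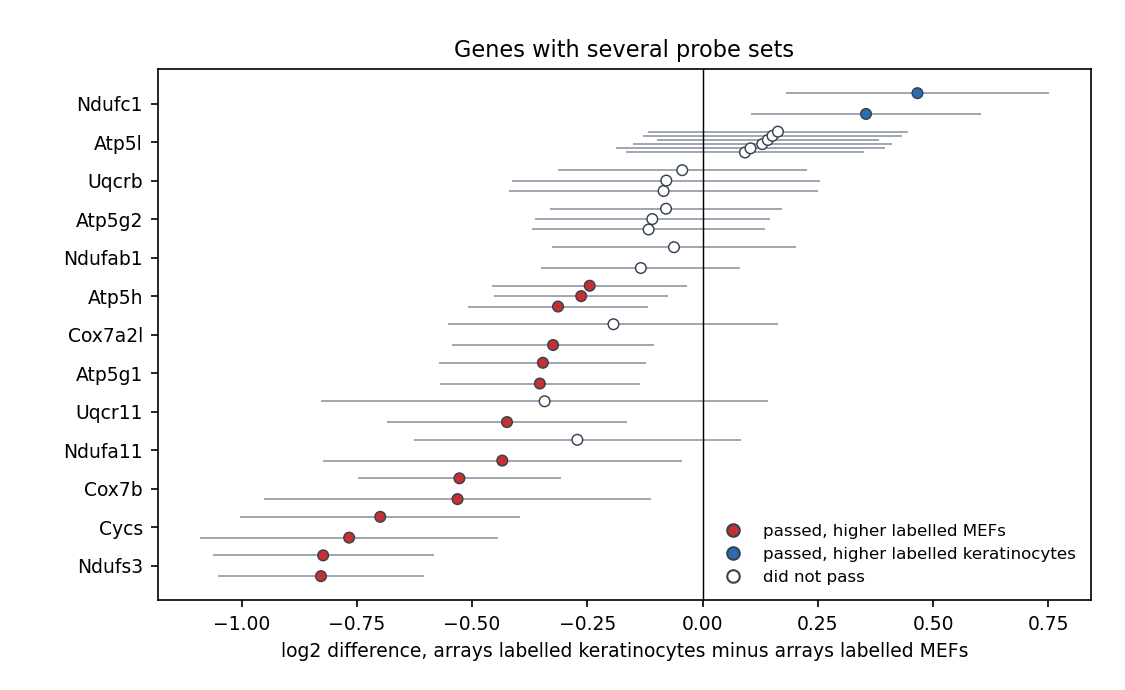
Each point is 1 probe set of a gene that had several, placed by its log2 difference (arrays labelled keratinocytes minus arrays labelled MEFs, 3 arrays each) with its 95% interval as a bar, and filled where it passed an adjusted p under 0.05. Points of a gene lie within 0.1628 of each other, Ndufc1 is the gene called toward the label keratinocytes, and the 6 probe sets of Atp5l sit together between 0.09 and 0.16.

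The assembly factors were 16 genes with 1 probe set each. Of these, 9 (56.2%, against 41.6% of all probe sets) were higher with the label MEFs and 1 (6.25%, against 32.4%) with the label keratinocytes. For complex I, 4 of 5 were called. Ndufaf7, a methyltransferase, read 6.35, 6.15 and 6.39 with the label keratinocytes and 7.18, 7.28 and 7.29 with the label MEFs, a difference of -0.95 ± 0.10 (SE, limma, adjusted p = 4.34e-05), or 1.94-fold. Ndufaf4 read 5.45, 5.02 and 5.19 against 6.15, 6.30 and 6.17, a difference of -0.99 ± 0.12 (SE, limma, adjusted p = 0.000138). No array labelled keratinocytes and 1 labelled MEFs was above background there, and the difference was at least 1.42-fold. Ndufaf1 was separate as well, at -0.79, and Ndufaf3, below background on all 6 arrays, overlapped.

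For complex II, Sdhaf3 was called at -0.998 ± 0.23 (SE, limma, adjusted p = 0.00492) but lay below background on all 6 arrays, and Sdhaf1 and Sdhaf2 were not called. For complex IV, Cox17, the copper chaperone, read 5.10, 4.98 and 5.27 with the label keratinocytes and 6.23, 6.00 and 6.14 with the label MEFs, a difference of -1.005 ± 0.11 (SE, limma, adjusted p = 6.12e-05), all below background. Cox10 and Cox15, which make the haem of complex IV, differed by -0.40 and -0.47, and Cox18, an insertase for a core subunit, by -0.36. Cox20, a chaperone for the same core subunit, was the exception, at 6.05, 5.97 and 6.25 against 5.69, 5.76 and 5.77, a difference of 0.35 ± 0.10 (SE, limma, adjusted p = 0.013), with all 3 values labelled MEFs below background. Cox11, Cox14 and Cox19 overlapped between the groups.

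Respiratory chain genes outside the symbol rule were counted in the same way. Of 42 further subunits and assembly factors listed, 31 were measured, with a median difference of -0.30. In this list, 16 (51.6%, against 41.7% of all genes) were higher with the label MEFs and 4 (12.9%, against 32.9%) with the label keratinocytes. Ecsit, an assembly factor of complex I, differed by -1.65 ± 0.15 (SE, limma, adjusted p = 1.65e-05), with values of 5.66, 5.51 and 6.05 against 7.33, 7.32 and 7.51. Uqcc1, an assembly factor of complex III, differed by -1.36 ± 0.12 (SE, limma, adjusted p = 1.3e-05), and Taco1, the translational activator of a complex IV core subunit, by -0.95. Taco1 was above background on no array labelled keratinocytes and on 1 labelled MEFs. Higd1a, with 0.99 and below background, and Atpif1, the inhibitor of ATP synthase, with 0.75, were higher with the label keratinocytes.

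Coenzyme Q carries electrons from complexes I and II to complex III. Of 15 genes of its synthesis and handling, 10 were measured. Of these, 6 (60%, against 41.7% of all genes) were higher with the label MEFs and 3 (30%, against 32.9%) with the label keratinocytes. Coq2, which joins the ring and the side chain, read 6.16, 6.32 and 6.40 with the label keratinocytes and 7.00, 6.85 and 7.11 with the label MEFs, a difference of -0.69 ± 0.11 (SE, limma, adjusted p = 0.000495). Coq8b, an ADCK-family kinase-like protein, differed by 0.72, with all values labelled MEFs below background. Pdss2, a subunit of the enzyme that makes the side chain, differed by -0.67, below background on all 6 arrays.

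Of 22 regulators of mitochondrial gene expression and biogenesis, 14 were measured. Of these, 6 (42.9%, against 41.7% of all genes) were higher with the label MEFs and 1 (7.14%, against 32.9%) with the label keratinocytes. The latter count was 3 with arrays centred or quantile normalised. It was 2 without keratinocyte replicate 1, and 0 without keratinocyte replicate 3 or any single MEF replicate, all by label. Tfb1m, a methyltransferase of mitochondrial ribosomal RNA, differed by -1.23 ± 0.16 (SE, limma, adjusted p = 0.000158). No array labelled keratinocytes was above background for Tfb1m. Of those labelled MEFs only replicate 2 was, at 6.052 against a background of 6.047, so the bound of 1.26-fold is uncertain. The coactivator Ppargc1b, at -1.67, and Tfam, which packages mitochondrial DNA, at -0.91, were called but lay below background on all 6 arrays. Of the factors whose motifs were searched in the promoters, Nrf1 at -0.08, Gabpa at 0.24, its partner Gabpb1 at -0.02 and Yy1 at -0.22 did not pass. The oestrogen-related receptor Esrra was called at -0.52, below background on all 6 arrays.

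Across the 84 member genes, the difference was only weakly related to the mean level (Pearson's r = -0.262, Spearman's rho = -0.142). This is a description across genes of the same 6 arrays. Of the members, 36 probe sets kept their call toward the label MEFs and 8 toward the label keratinocytes under each alternative that left out no probe sets and set no minimum size, those without single arrays included. The same count was not made over all probe sets, so it does not tell whether the members' calls were more or less stable than the rest.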

How the data were processed

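Total RNA of 6 cultures was hybridised to Affymetrix mouse gene arrays, and the authors deposited 1 table of log2 values for 15648 probe sets. The study's methods name RMA normalisation with the Bioconductor package oligo, and the submitters' processing notes give its version as 1.46.0. That the deposited log2 values are RMA output was inferred from these sources and from their range. RMA brings arrays to a common distribution, so that a shift shared by most genes would be removed, and background correction compresses differences of dim probe sets.

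Probe sets were named through the platform annotation: 11288 had 1 symbol, 645 several and 3715 no entry. No member's symbol changed under current RefSeq names. Limma 3.58.1 (lmFit and eBayes, R 4.3.3) was fitted over the 11288 probe sets without a block, with Benjamini-Hochberg adjustment and a threshold of 0.05. With 3 arrays against 3, the smallest exact permutation p is 0.1, so single values were not tested that way. A probe set was above background on an array when it exceeded the 95th percentile of the 10 probe sets for olfactory receptors. Where one group was below background on all its arrays, a fold is given only as a bound. The number of arrays limits the precision. The script was tested on simulated data.

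Members were grouped by complex from textbook roles. Named were, per group, up to 4 members with the largest called difference each way, those called against their group, those with a difference of at least 1, core subunits, isoform pairs, and up to 3 of each further list. Other members named were chosen after their values were seen. The members, lists and motifs were chosen with earlier results of these data known. Replicates are biological by label, and nothing says whether they came from separate litters, so the p-values measure the spread between these arrays. Replicate numbers did not pair the arrays. The alternatives were median centring, quantile normalisation, background and brightness filters, an intensity trend, the methods' t-test, all probe sets in the fit, gene means, a replicate block, a minimum difference, and leaving out each array. Promoters and motifs were read with Python 3.11.15, and figures drawn with matplotlib 3.10.9.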

Additional observations from a re-analysis of the deposited data

How the results depend on the processing

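With single arrays left out, the members higher by label MEFs numbered 41 to 52 and those higher by label keratinocytes 8 to 10. These were 39.4% to 50% and 7.69% to 9.62% of the members, against 36.3% to 40.8% and 29.5% to 31.7% of all probe sets. No member's call turned direction under any alternative that kept single probe sets. Values other than counts by group were tallied only for members selected by size, direction, core role or isoform pairing, and for the median of all probe sets. Of these values, 785 were the same, 57 lost and 5 gained their call and 3 moved. The tally is no measure of stability, since some settings fixed their outcome. Current RefSeq names changed no member, so values under them had to stay the same. The minimum difference had to remove every call below it. Below, counts are given as higher by label MEFs or by label keratinocytes, and the cause of a change was not tested unless the setting itself removed probe sets or raised the threshold.

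Median centring gave 38 and 12 members, against 36.1% and 36.5% of all probe sets (complex II keratinocytes 2, complex III keratinocytes 1, complex IV MEFs 3, biogenesis regulators keratinocytes 3). Quantile normalisation gave 37 and 10, against 38.3% and 34.2% (complex III keratinocytes 1, complex IV MEFs 3, complex V MEFs 4, biogenesis regulators keratinocytes 3). The t-test left 3 coenzyme Q genes by label MEFs and 2 biogenesis regulators by label keratinocytes. The intensity trend gave 1 complex III probe set by label keratinocytes, and gene means left 1 value for cytochrome c, which is 1 gene.

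Fewer probe sets were tested under the filters. Requiring values above background on at least 3 arrays gave 40 (48.2%) and 7 (8.43%) members, against 45.6% and 35.6% of all probe sets tested. It left complex III MEFs 3 and keratinocytes 1, complex IV keratinocytes 0 and assembly MEFs 5. It also left other subunits MEFs 10 and keratinocytes 2, coenzyme Q MEFs 2, and biogenesis regulators MEFs 2 and keratinocytes 2. Without the dimmest 25%, the members were 48 (50.5%) and 7 (7.37%), against 47.2% and 30.5%. Complex III keratinocytes was then 1, complex IV keratinocytes 0 and biogenesis regulators keratinocytes 2. Without probe sets below the median, the members were 40 (51.3%) and 5 (6.41%), against 49.2% and 31.7% of all probe sets. This filter left complex III MEFs 2 and keratinocytes 1, complex IV keratinocytes 0, assembly keratinocytes 0, other subunits keratinocytes 1, coenzyme Q MEFs 1 and keratinocytes 1, and biogenesis regulators MEFs 2. A minimum difference of 1 left 1 and 2 members (0.962% and 1.92%, against 14.3% and 14% of all probe sets), 1 assembly factor, 2 other subunits, 1 content marker and 2 biogenesis regulators by label MEFs, 2 complex IV probe sets by label keratinocytes, and 0 in each other group.

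Without single arrays, the range was 3 to 5 for complex IV MEFs (3 without MEF replicate 3), 0 to 1 for complex III keratinocytes, 1 to 2 for assembly keratinocytes and 0 to 2 for biogenesis regulators keratinocytes. Same-numbered arrays did not deviate together (correlations -0.231, -0.209 and -0.032), so the numbers are no pairing. With a replicate block 43 (41.3%) and 9 (8.65%) members were called, against 38.2% and 29.9% of all probe sets. Under it 6 calls toward the label MEFs were lost, and biogenesis regulators keratinocytes was 0. Signal over background limits the dim probe sets: Cox4i2, Cox6b2, Ndufa4l2, Cox17 and Sdhaf3 lay below background on all arrays, and the size of their differences is uncertain.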
